A study of Mus musculus with 18 samples.

Results

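Solute carriers are membrane proteins that move amino acids, sugars, ions, metals, nucleotides and neurotransmitters across the plasma membrane and across the membranes of vesicles, Golgi and endosomes. The 161 genes described here were chosen by name and by their level in control cortex: symbols made of Slc and a digit, with a mean of at least 1 FPKM (fragments scaled to gene length and depth) over the 3 control RNA-seq libraries. The mitochondrial Slc25 family and 7 carriers, *Slc1a2*, *Slc1a3*, *Slc17a6*, *Slc17a7*, *Slc2a1*, *Slc3a2* and *Slc7a11*, were left out by name. Of 324 genes with such names 161 passed this floor, among 55153 genes in the RNA-seq table. They comprise 156 carriers and 5 genes that only bear a carrier's name.

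Many carriers couple the movement of their substrate to the sodium, proton or chloride gradient, and others exchange one substrate for another. In the developing cortex, chloride cotransporters set the chloride gradient that decides how a neuron responds to GABA, vesicular carriers load transmitter, and carriers of vessels, meninges and choroid plexus control what enters the brain. Nucleotide sugar carriers of the Golgi feed the making of glycoproteins and proteoglycans.

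RNA-seq, and Ribo-seq, which counts RNA fragments protected by ribosomes, were done on the cerebral cortex of mouse embryos labelled C57BL/6 at embryonic day 15.5. The groups were wild type (Ctrl), *Fto* flox/flox with *Emx1*-Cre (*F*-cKO) and *Mettl3* flox/flox with *Emx1*-Cre (*M*-cKO). *Fto* encodes an enzyme that removes methyl groups from adenosines of RNA, and *Mettl3* the catalytic subunit of the complex that adds them. Each group had 3 libraries in each assay, 18 in all, which the labels give as separate biological repeats without saying how many embryos or litters each holds. The Ribo-seq methods of the study give 3 samples as from 1 L, which is unclear and may mean a single litter, so how independent they are is not known. *Emx1*-Cre is active in the progenitors of cortical excitatory neurons and glia, so interneurons, vessels, microglia and meninges in the same tissue lie outside its lineage. RNA-seq counts per library came to 22169914, 20683998 and 18504094 in Ctrl, 20995018, 20401843 and 21302488 in *F*-cKO, and 22592406, 19773777 and 22185190 in *M*-cKO. Ribo-seq was less even, with 35853227, 30081796 and 31570596 in Ctrl, 20564223, 10973699 and 32954317 in *F*-cKO, and 20933167, 13764136 and 21725348 in *M*-cKO.

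The targeted genes were read first. *Fto* stood at 10.8, 11.2 and 8.37 FPKM in Ctrl, 3.26, 7.56 and 2.43 in *F*-cKO, and 13.6, 12.1 and 13.4 in *M*-cKO. The *F*-cKO libraries all lay below the other groups, with *F*-cKO 2 far nearer to them than the other 2 (log2 fold change -1.21 ± 0.33 SE, adjusted *P* = 0.0298). In *M*-cKO *Fto* was called higher (0.36 ± 0.10 SE, adjusted *P* = 0.0168). *Fto* in Ribo-seq was 25.9, 22 and 17.6 RPKM in Ctrl, 3.91, 2.11 and 4.04 in *F*-cKO, and 26.1, 23.7 and 22.1 in *M*-cKO, where RPKM is reads scaled to gene length and depth, and all 3 *F*-cKO libraries lay far below the other groups. Its Ribo-seq test did not pass (log2 fold change -2.67 ± 0.25 SE, adjusted *P* = 0.35). *Mettl3* stood at 5.84, 6.43 and 5.07 FPKM in Ctrl, 6.3, 6.12 and 5.25 in *F*-cKO, and 8.61, 7.82 and 8.34 in *M*-cKO, so that the *M*-cKO libraries were the highest (log2 fold change 0.50 ± 0.09 SE, adjusted *P* = 0.00221). A count over the whole gene also holds reads of exons that the deletion leaves. *Mettl3* in Ribo-seq was 9.16, 9.25 and 9.93 RPKM in Ctrl, 9.64, 8.93 and 8.78 in *F*-cKO, and 6.78, 6.02 and 6.4 in *M*-cKO, where the *M*-cKO libraries were the lowest (log2 fold change -0.55 ± 0.09 SE, adjusted *P* = 0.0157). Cortical markers were present in every library: the summed level of the 6 excitatory neuron markers, of which *Neurod6* was the most abundant, was 758, 761 and 740.2 FPKM in Ctrl, 830.3, 844 and 848 in *F*-cKO, and 939, 956 and 934 in *M*-cKO.

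Levels of single carriers in Ctrl cortex, which chose the members and are given with no test, ran from the floor of 1 FPKM to 56.3 FPKM for *Slc22a17*, a receptor for the iron-binding protein lipocalin. Next came *Slc29a4*, a monoamine carrier of the plasma membrane (49.4), *Slc35f1*, whose substrate is not settled (34.5), *Slc38a2*, a sodium-coupled carrier of small neutral amino acids (31.2), and the zinc importer *Slc39a6* (30.3). Just inside the floor were *Slc10a4* (1.05), *Slc10a3* (1.06) and *Slc2a4* (1.09). Just outside it were *Slc6a7* (0.992), *Slc46a3* (0.891) and *Slc26a2* (0.872). Summed over the 161 members the level was 1289, 1299 and 1316 FPKM in Ctrl, 1248, 1241 and 1219 in *F*-cKO, and 1278, 1294 and 1301 in *M*-cKO. The *F*-cKO sums all lay below the lowest Ctrl sum, and the *M*-cKO sums overlapped those of Ctrl.

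By substrate, amino acid carriers (274 FPKM summed, mean of Ctrl), nucleotide sugar carriers (202) and metal carriers (201) made up the largest groups. Gene models of 73 members overlap another gene in the RefSeq annotation. The use of strand was not stated, so reads of such a pair cannot be told apart. Among the members named below these are *Slc38a1* with *Gm32457*, *Slc9a5* with *Plekhg4*, *Slc35a4* with *Apbb3*, *Slc48a1* with *Hdac7*, *Slc46a1* with *Sarm1*, *Slc20a2* with *Smim19*, *Slc2a4rg-ps* with *Zbtb46*, *Slc16a4* with *Rbm15*, *Slc33a1* with *Gmps*, and *Slc22a6* and *Slc22a8* with *Gm36394*. Predicted genes and pseudogenes overlap *Slc6a11*, *Slc32a1*, *Slc16a14*, *Slc4a4*, *Slc1a1*, *Slc35f1*, *Slc35b4*, *Slc6a15*, *Slc2a3*, *Slc24a3*, *Slc14a2*, *Slc29a4*, *Slc6a8*, *Slc22a23*, *Slc30a7*, *Slc30a10* and *Slc38a10*.

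1 Ribo-seq library stood apart. In *F*-cKO 2, the members took 0.501% of all fragments, compared with 0.11 to 0.152% in the other 8 libraries. Their summed Ribo-seq level was 307, 331 and 315 RPKM in Ctrl, 261, 929 and 310.3 in *F*-cKO, and 304, 322 and 293 in *M*-cKO. Against the Ctrl mean, the median log2 ratio of 151 members was 1.87 in *F*-cKO 2, -0.47 in *F*-cKO 1 and -0.04 in *F*-cKO 3, while the median of all genes in *F*-cKO 2 was -0.01. Of the 151 members 142 were highest in this library, and 128 lay more than 1 log2 unit above the Ctrl mean, as did 21.1% of all genes. The shift was seen in carriers: 147 carriers had a median of 1.89, and the 4 genes that only bear a carrier's name -0.39. Sums of some fixed gene lists were high in the same library. For the 6 sodium-potassium ATPase subunits they were 60.3, 54.8 and 60.6 RPKM in Ctrl, 35.4, 204 and 61 in *F*-cKO, and 48, 43.3 and 55.2 in *M*-cKO. For the 7 endothelial markers they were 6.46, 8.79 and 10 RPKM in Ctrl, 5.4, 90.5 and 8.54 in *F*-cKO, and 5.13, 7.12 and 6.22 in *M*-cKO. Some other lists were low in *F*-cKO 2. Radial glia markers summed to 1285.5 RPKM there (1905 to 2153 in Ctrl) and excitatory neuron markers to 572 (913 to 1039 in Ctrl). Membrane proteins as a class were not tested. *F*-cKO 2 also had the fewest Ribo-seq counts of all 9 libraries. Its correlation across genes with the others of its group (genes are not independent replicates) was 0.891 and 0.891, compared with 0.977 between *F*-cKO 1 and *F*-cKO 3. Every Ribo-seq fold change of a member in *F*-cKO is therefore given with and without this library.

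**Figure D1:**
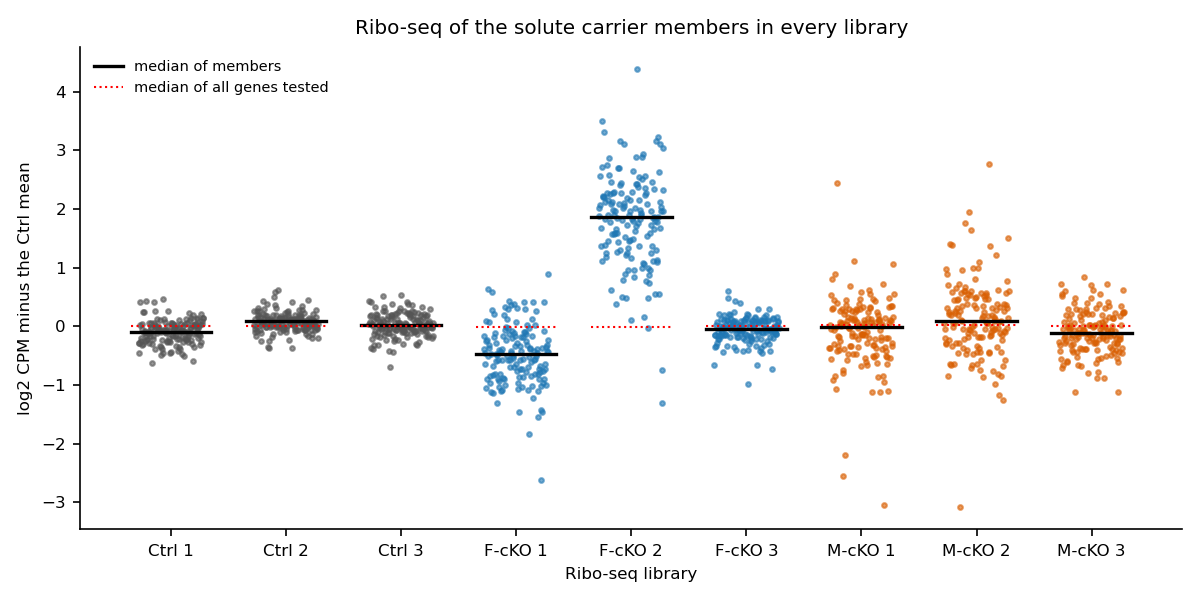
Log2 ratio of each member's depth-scaled Ribo-seq counts to its mean in Ctrl (y axis), in each of the 9 Ribo-seq libraries (x axis); points are members, the black line is their median and the red dotted line the median of all genes. In *F*-cKO 2 the members' median was 1.87, and in the other 8 libraries it lay between -0.47 and 0.08.

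The loss of *Fto* was compared with Ctrl to ask which carriers differ at the RNA level. Most called members were lower, with *Slc22a6*, *Slc6a13* and *Slc22a8*, all of small absolute level, at the largest differences. The floor was set on the Ctrl libraries of this comparison, so the size of differences in members near it may be overstated. *Slc38a1* and *Slc16a14* were the clearest of the few that were higher. All 161 members passed the filter on low counts, and edgeR called 6 higher and 28 lower at an adjusted *P* below 0.05, against 11.5% higher and 9.57% lower of 16944 genes. The median log2 fold change was -0.06 over members and -0.01 over all genes, and 5 called members differed by more than 2-fold. Without Ctrl 1, Ctrl 3, *F*-cKO 2 or *F*-cKO 3 the number called higher was 3, 2, 3 and 3, and without Ctrl 3 or *F*-cKO 2 the number called lower was 14 and 15. Over all genes, those fits called 1481, 984, 1148 and 1601 higher, compared with 1955 with every library. Those for the lower counts called 559 and 812 genes lower, compared with 1621. Of the 28 called lower, 13 were called in every alternative, and of the 6 called higher, 2 were. Because the floor was set on the same Ctrl libraries, it favors genes that read high in Ctrl, so these shares are not compared with those of all genes. With the floor on the mean of all 9 libraries, 6 were called higher and 27 lower in *F*-cKO, and with a floor of 2 FPKM, 5 and 26.

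The loss of *Mettl3* was compared with the same 3 Ctrl libraries, so the values of both knockouts stand side by side and are not independent. In *M*-cKO, *Slc10a4* and *Slc32a1* were among the members called higher, and *Slc26a7*, *Slc4a10* and *Slc7a2* among those called lower. Of 161 members, 21 were called higher and 30 lower, against 15.5% and 14.1% of 16968 genes. The floor was set on the Ctrl libraries of this comparison too, so these shares are likewise not compared with those of all genes. The members' median was -0.04, compared with -0.01 over all genes, and 4 called members differed by more than 2-fold. Without Ctrl 1 the number called higher was 13, and without *M*-cKO 1 the number called lower was 19. Over all genes these numbers were 2125 (2630 with every library) and 1712 (2394). Of the 21 called higher 11 were called in every alternative, and of the 30 called lower 16 were.

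Testing the knockouts against each other leaves the Ctrl libraries out. Here 28 members were called higher in *M*-cKO and 24 lower, against 13.1% and 14.3% of 16802 genes, with a median of 0.01 compared with -0.00 over all genes. Without *F*-cKO 2, *F*-cKO 3, *M*-cKO 1 or *M*-cKO 3, the number called lower was 12, 14, 13 and 13. Over all genes it was 1325, 1840, 1498 and 1645, compared with 2403 with every library. Of the 28 called higher 18, and of the 24 called lower 12, were called in every alternative. Members below were named by a fixed rule, and those named beyond it, such as *Slc22a5* and *Slc18a2*, were chosen after their values were seen.

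**Figure D2:**
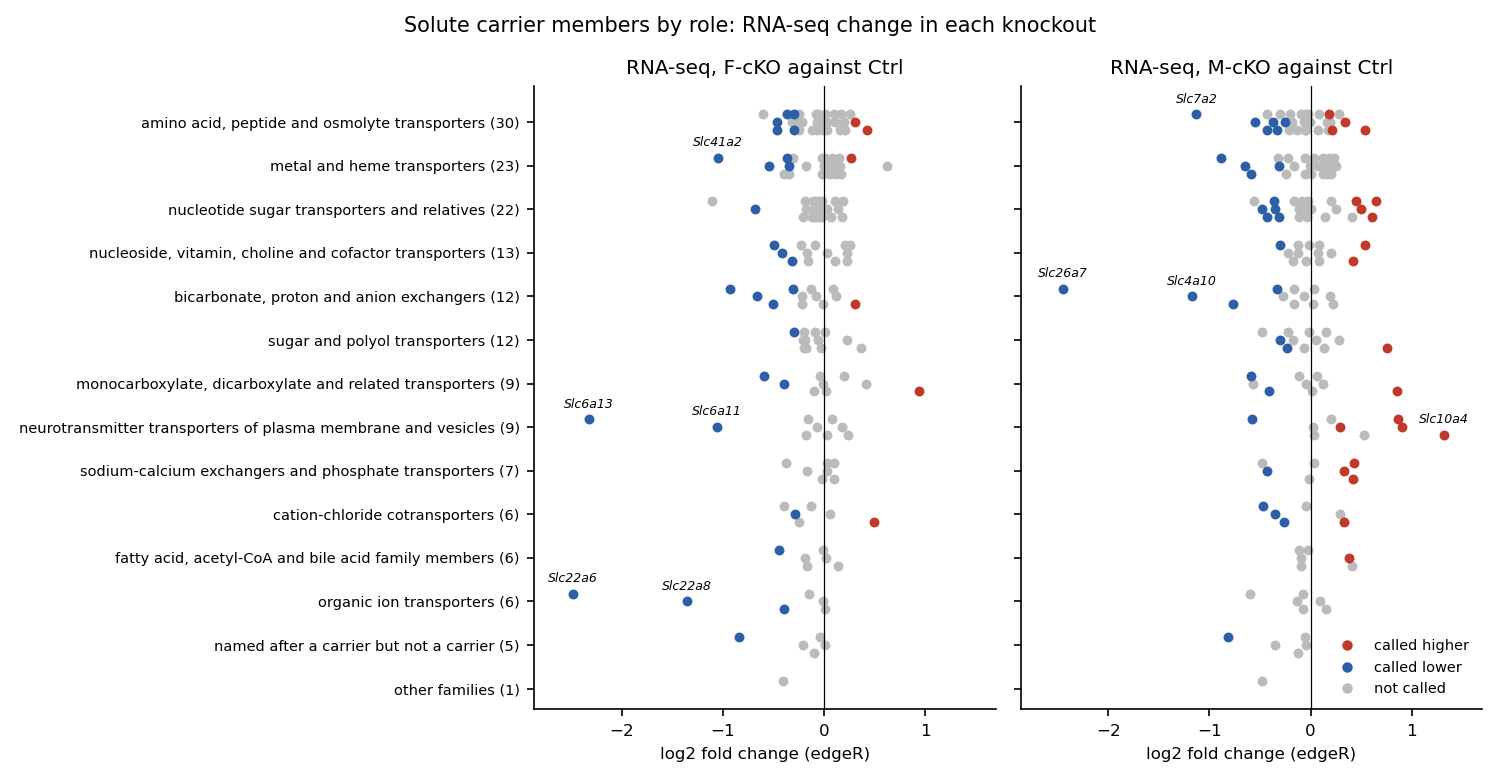
RNA-seq log2 fold change against Ctrl (x axis) of the 161 members, grouped by substrate (y axis), in *F*-cKO and in *M*-cKO; each point is a member, red called higher, blue called lower and grey not called at an adjusted *P* below 0.05. *Slc22a6* (-2.49) and *Slc6a13* (-2.33) lie farthest to the left in *F*-cKO, and *Slc26a7* (-2.45) in *M*-cKO.

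Of the 6 organic ion carriers, 3 were called lower in *F*-cKO and 0 higher (unadjusted *P* below 0.05 in edgeR: 3 lower, 0 higher), and none passed in *M*-cKO, where 1 was lower at an unadjusted *P* below 0.05. *Slc22a6*, which takes up organic anions such as drugs and transmitter metabolites, was at 1.02, 1.8 and 0.955 FPKM in Ctrl, 0.338, 0.0729 and 0.265 in *F*-cKO, and 0.394, 1.93 and 1.93 in *M*-cKO. All *F*-cKO libraries lay below every Ctrl library, and *M*-cKO 1 was low while *M*-cKO 2 and 3 were above the highest Ctrl value. It fell in *F*-cKO (log2 fold change -2.49 ± 0.43 SE, adjusted *P* = 0.00591) and was not called in *M*-cKO (0.16 ± 0.45 SE, adjusted *P* = 0.829). Its Ctrl level lay close to the floor of 1 FPKM, which was set on the same Ctrl libraries and favors genes that read high in them. Its difference from Ctrl is therefore not independent of how it was chosen. *Slc22a8*, a related anion carrier, was at 1.89, 2.58 and 3.09 FPKM in Ctrl, 1.08, 1.12 and 0.772 in *F*-cKO, and 1.18, 1.79 and 2.03 in *M*-cKO. Its *F*-cKO libraries were again below all of Ctrl, and those of *M*-cKO overlapped Ctrl at its lower end (log2 fold change -1.35 ± 0.22 SE, adjusted *P* = 0.00494 in *F*-cKO and -0.60 ± 0.23 SE, adjusted *P* = 0.0671 in *M*-cKO). Between the knockouts, *Slc22a6* was higher in *M*-cKO (2.63 ± 0.60 SE, adjusted *P* = 0.00945). *Slc22a5*, the carnitine carrier, was at 6.22, 6.53 and 6.84 FPKM in Ctrl, 5.05, 4.9 and 5.05 in *F*-cKO, and 5.7, 6.24 and 5.98 in *M*-cKO and fell in *F*-cKO (log2 fold change -0.39 ± 0.09 SE, adjusted *P* = 0.0156). *Slc22a5* was not called without Ctrl 3 (0.061) or *F*-cKO 2 (0.0578), where parentheses give the adjusted *P*, which ran from 0.00924 to 0.061 over its 11 alternatives. The abundant *Slc22a17* (-0.15 ± 0.09 SE, adjusted *P* = 0.245 in *F*-cKO) and *Slc22a23* (0.01 ± 0.07 SE, adjusted *P* = 0.938) were not called.

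Of the 9 neurotransmitter carriers, 2 were called lower and 0 higher in *F*-cKO (unadjusted 2 and 1), and 4 were called higher and 1 lower in *M*-cKO. Their summed level was 46.8, 46 and 49.6 FPKM in Ctrl, 45.9, 43.4 and 37.4 in *F*-cKO, and 60.5, 62.4 and 56.2 in *M*-cKO, with the 3 *M*-cKO libraries above all others. *Slc6a13*, a GABA and taurine carrier of meninges and vessels, was at 1.38, 3.25 and 1.53 FPKM in Ctrl, 0.569, 0.168 and 0.494 in *F*-cKO, and 0.531, 3.9 and 4.55 in *M*-cKO. The *F*-cKO libraries were the lowest apart from *M*-cKO 1, which lay among them, while *M*-cKO 2 and 3 were above all Ctrl libraries. It fell in *F*-cKO (log2 fold change -2.33 ± 0.44 SE, adjusted *P* = 0.008) and was not called in *M*-cKO (0.53 ± 0.56 SE, adjusted *P* = 0.517). *Slc6a11*, the GABA carrier of astroglia, was at 8.74, 6.16 and 9.71 FPKM in Ctrl, 4.73, 4.05 and 3.14 in *F*-cKO, and 5.22, 5.39 and 6 in *M*-cKO. Both knockouts lay below all Ctrl libraries, *F*-cKO below *M*-cKO as well, and it fell in *F*-cKO (log2 fold change -1.06 ± 0.18 SE, adjusted *P* = 0.00544) and in *M*-cKO (-0.57 ± 0.14 SE, adjusted *P* = 0.0107).

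*Slc32a1*, which loads GABA and glycine into vesicles, was at 8.2, 7.92 and 8.27 FPKM in Ctrl, 10.8, 8.74 and 6.47 in *F*-cKO, and 15.6, 15.4 and 13.5 in *M*-cKO. The *M*-cKO libraries were above all others and the *F*-cKO libraries spread on both sides of Ctrl (log2 fold change 0.86 ± 0.08 SE, adjusted *P* = 5.73e-05 in *M*-cKO, 0.77 ± 0.15 SE, adjusted *P* = 0.00436 against *F*-cKO). *Slc10a4*, a vesicular carrier of cholinergic and monoamine neurons, was at 1.53, 0.515 and 1.12 FPKM in Ctrl, 0.877, 1.18 and 0.792 in *F*-cKO, and 2.93, 2.75 and 2.25 in *M*-cKO, again with *M*-cKO above all other libraries (log2 fold change 1.32 ± 0.30 SE, adjusted *P* = 0.00721, and against *F*-cKO 1.47 ± 0.21 SE, adjusted *P* = 0.0011). *Slc18a2*, the vesicular monoamine carrier, was at 2.15, 1.77 and 2.25 FPKM in Ctrl, 2.56, 2.58 and 1.89 in *F*-cKO, and 5.05, 4.54 and 2.06 in *M*-cKO, so that *M*-cKO 3 lay within Ctrl. It was called in *M*-cKO (0.91 ± 0.27 SE, adjusted *P* = 0.0245). *Slc18a2* was not called without Ctrl 1 (0.0639), Ctrl 2 (0.0578), *M*-cKO 1 (0.0849) or *M*-cKO 2 (0.0957) or by DESeq2 (0.0714), and the adjusted *P* ran from 4.82e-09 to 0.0957 over 11 alternatives.

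Markers of the cells that hold these carriers were read in the same libraries. In bulk tissue, fewer cells of a type and less RNA per cell cannot be told apart. The 7 markers of interneurons and ganglionic eminence, with *Dlx1* the most abundant and none at 0, summed to 87.1, 86.8 and 85.9 FPKM in Ctrl, 113, 92.3 and 82.3 in *F*-cKO, and 164, 150 and 121 in *M*-cKO, and 7 of 7 were called higher in *M*-cKO and 3 of 7 in *F*-cKO. The 7 meningeal markers, with *Col3a1* the most abundant and none at 0, summed to 14, 26.4 and 13.8 FPKM in Ctrl, 8.4, 3.4 and 10.7 in *F*-cKO, and 7.41, 26.3 and 35.4 in *M*-cKO. Of these 4 of 7 were called lower in *F*-cKO (median -1.20), 0 in *M*-cKO (unadjusted 0; median 0.23), and 4 of 7 higher in *M*-cKO than in *F*-cKO. *M*-cKO 1 was low in these markers, as it was in *Slc22a6* and *Slc6a13*. The 6 choroid plexus markers, led by *Ttr* and none at 0, summed to 70, 806 and 317 FPKM in Ctrl, 394, 274 and 383 in *F*-cKO, and 435, 508 and 596 in *M*-cKO, and 0 of 4 tested were called in *F*-cKO and 0 of 6 in *M*-cKO (unadjusted 0 in each). The 5 astroglial markers, led by *Sox9* and none at 0, summed to 27, 27 and 25.5 FPKM in Ctrl, 27, 25.1 and 23.6 in *F*-cKO, and 30.2, 32.2 and 35.3 in *M*-cKO, with 1 called higher and 3 lower in each knockout. The part of these markers in the results for the carriers was not tested.

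**Figure D3:**
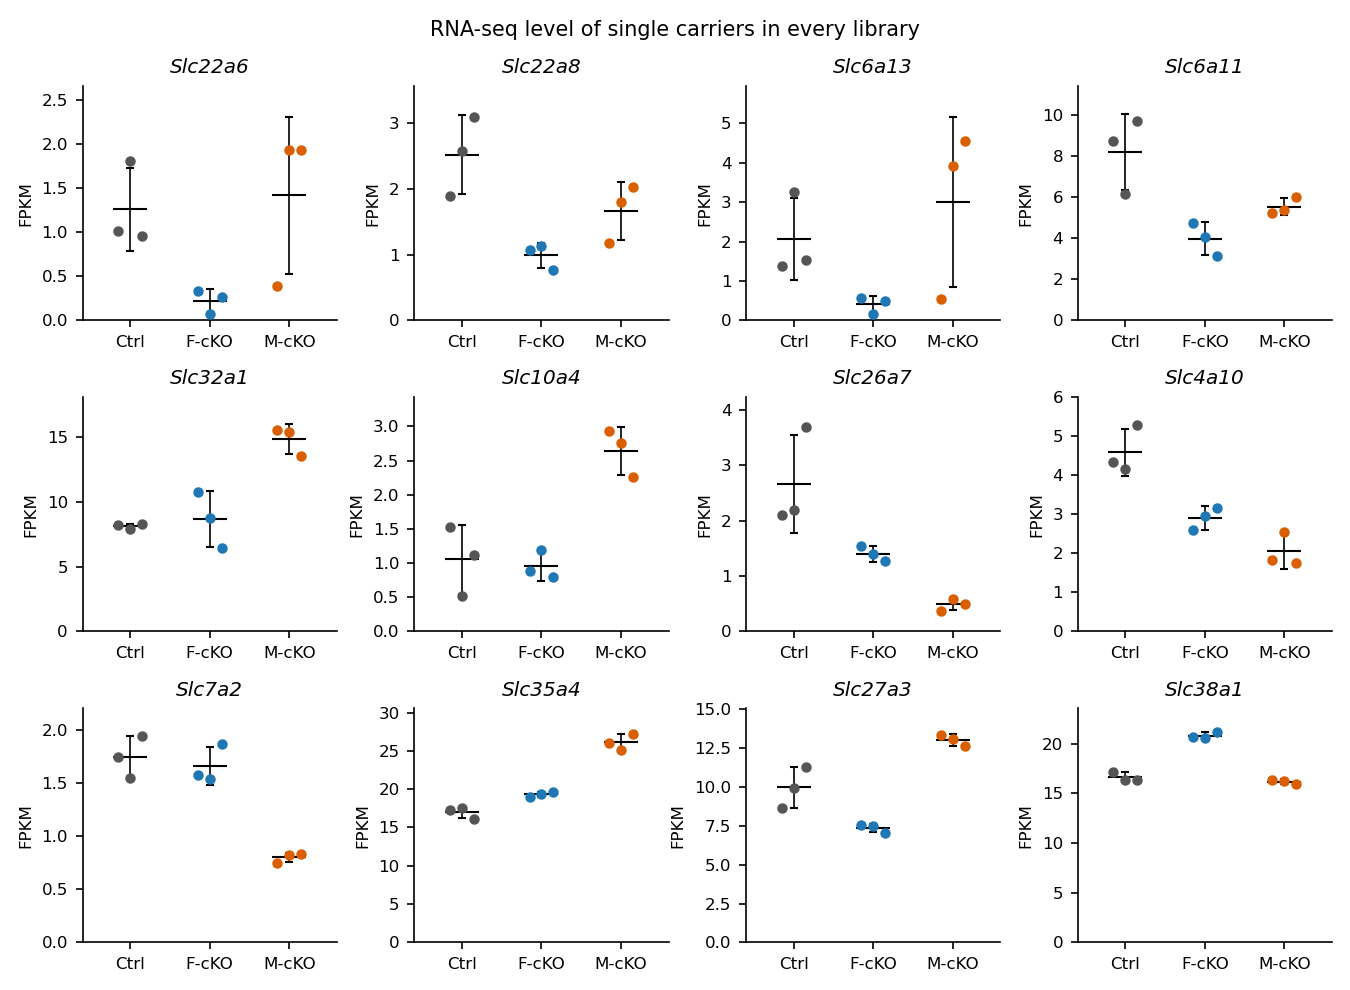
RNA-seq level in FPKM (y axis) of 12 members in Ctrl, *F*-cKO and *M*-cKO (x axis); each point is a library, the black bar is the mean and the error bar the SD of 3 libraries. *Slc22a6*, *Slc22a8* and *Slc6a13* are lowest in *F*-cKO, *Slc32a1* and *Slc10a4* are highest in *M*-cKO, and *Slc26a7* and *Slc7a2* are lowest in *M*-cKO.

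Of the 30 amino acid, peptide and osmolyte carriers, 2 were called higher and 5 lower in *F*-cKO, and 4 higher and 6 lower in *M*-cKO. *Slc38a1*, a sodium-coupled glutamine carrier of neurons, was at 17.2, 16.4 and 16.4 FPKM in Ctrl, 20.6, 20.5 and 21.2 in *F*-cKO, and 16.4, 16.3 and 15.9 in *M*-cKO. The *F*-cKO libraries were the highest, above both other groups, whose values lay close together (log2 fold change 0.31 ± 0.05 SE, adjusted *P* = 0.00591, and in *M*-cKO -0.05 ± 0.05 SE, adjusted *P* = 0.536). *Slc7a2*, a carrier of arginine and lysine, was at 1.74, 1.55 and 1.95 FPKM in Ctrl, 1.57, 1.54 and 1.87 in *F*-cKO, and 0.752, 0.824 and 0.832 in *M*-cKO. The *M*-cKO libraries all lay below the others and *F*-cKO overlapped Ctrl (log2 fold change -1.13 ± 0.13 SE, adjusted *P* = 0.000115, and against *F*-cKO -1.06 ± 0.13 SE, adjusted *P* = 0.000486). *Slc7a5*, which carries large neutral amino acids, was at 25.1, 24.7 and 25.2 FPKM in Ctrl, 26.2, 25 and 23.7 in *F*-cKO, and 29.6, 31.6 and 34.1 in *M*-cKO. It rose in *M*-cKO alone (log2 fold change 0.34 ± 0.06 SE, adjusted *P* = 0.00288, and in *F*-cKO -0.01 ± 0.06 SE, adjusted *P* = 0.9, and between knockouts 0.34 ± 0.07 SE, adjusted *P* = 0.006).

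*Slc1a1*, the glutamate and cysteine carrier of neurons, was at 6.66, 5.79 and 7.11 FPKM in Ctrl, 4.78, 5.15 and 4.35 in *F*-cKO, and 4.08, 4.43 and 4.89 in *M*-cKO. Both knockouts lay below all Ctrl libraries (log2 fold change -0.46 ± 0.10 SE, adjusted *P* = 0.0114 in *F*-cKO and -0.55 ± 0.10 SE, adjusted *P* = 0.00191 in *M*-cKO). *Slc38a3*, another glutamine carrier, was at 5.76, 6.79 and 5.81 FPKM in Ctrl, 4.15, 4.44 and 4.78 in *F*-cKO, and 4.37, 4.85 and 5.5 in *M*-cKO, below all Ctrl libraries in both knockouts (-0.47 ± 0.10 SE, adjusted *P* = 0.0111 in *F*-cKO and -0.33 ± 0.11 SE, adjusted *P* = 0.0367 in *M*-cKO). *Slc38a3* was not called without Ctrl 1 (0.0502), Ctrl 2 (0.132), Ctrl 3 (0.0533), *M*-cKO 1 (0.141) or *M*-cKO 2 (0.102), and the adjusted *P* ran from 0.0137 to 0.141 over 11 alternatives. *Slc6a15*, a neuronal carrier of branched-chain amino acids and proline, fell in *M*-cKO, where its libraries read 11.3, 11.1 and 10.8 FPKM compared with 12.7, 15.6 and 14.5 in Ctrl (log2 fold change -0.38 ± 0.08 SE, adjusted *P* = 0.00408). *Slc7a6*, an exchanger of cationic and neutral amino acids, was not called against Ctrl in either knockout and was lower in *M*-cKO than in *F*-cKO (-0.30 ± 0.06 SE, adjusted *P* = 0.00572). *Slc38a10* was higher in *M*-cKO than in *F*-cKO (0.27 ± 0.06 SE, adjusted *P* = 0.00753). Of the most abundant members of this group, *Slc38a2* was not called against Ctrl in *F*-cKO (0.17, adjusted *P* = 0.108) or *M*-cKO (-0.09, adjusted *P* = 0.491). *Slc1a4*, a carrier of serine and alanine, was at 25.5, 23.3 and 28.3 FPKM in Ctrl, 21.1, 21.3 and 20.7 in *F*-cKO, and 21.1, 20.7 and 23.3 in *M*-cKO, lower in both knockouts (-0.30 ± 0.07 SE, adjusted *P* = 0.02 in *F*-cKO and -0.25 ± 0.08 SE, adjusted *P* = 0.0346 in *M*-cKO). In *F*-cKO, *Slc1a4* was not called without Ctrl 1 (0.0594), Ctrl 3 (0.0653) or *F*-cKO 2 (0.0622), and the adjusted *P* ran from 0.00177 to 0.0653 over 11 alternatives. In *M*-cKO, *Slc1a4* was not called without Ctrl 1 (0.0794), Ctrl 3 (0.141), *M*-cKO 1 (0.114) or *M*-cKO 2 (0.127), and the adjusted *P* ran from 0.012 to 0.141 over 11 alternatives.

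Of the 12 bicarbonate, proton and anion exchangers, 1 was called higher and 4 lower in *F*-cKO, and 0 higher and 4 lower in *M*-cKO (unadjusted 1 higher and 7 lower). *Slc26a7*, an anion exchanger, was at 2.1, 2.19 and 3.68 FPKM in Ctrl, 1.54, 1.4 and 1.26 in *F*-cKO, and 0.373, 0.593 and 0.5 in *M*-cKO. The groups did not overlap: Ctrl was highest, *F*-cKO lay between, and *M*-cKO was lowest, with Ctrl 3 well above the other Ctrl libraries. It fell in *M*-cKO by 2.45 on the log2 scale (SE 0.25, adjusted *P* = 7.41e-05) and in *F*-cKO (-0.93 ± 0.21 SE, adjusted *P* = 0.0157), and was lower in *M*-cKO than in *F*-cKO (-1.53 ± 0.20 SE, adjusted *P* = 0.000664). In *F*-cKO, *Slc26a7* was not called without *F*-cKO 2 (0.053), and the adjusted *P* ran from 6.34e-08 to 0.053 over 11 alternatives. *Slc4a10*, a sodium-driven bicarbonate carrier of neurons and choroid plexus, was at 4.33, 4.15 and 5.27 FPKM in Ctrl, 2.59, 2.95 and 3.17 in *F*-cKO, and 1.84, 2.55 and 1.75 in *M*-cKO. Again Ctrl was highest and *M*-cKO lowest without overlap (log2 fold change -0.67 ± 0.12 SE, adjusted *P* = 0.00613 in *F*-cKO and -1.17 ± 0.15 SE, adjusted *P* = 0.000232 in *M*-cKO). *Slc4a4*, a sodium bicarbonate cotransporter of glia, was at 2.71, 2.45 and 2.46 FPKM in Ctrl, 2.16, 2 and 2.02 in *F*-cKO, and 1.4, 1.48 and 1.64 in *M*-cKO and followed the same order of groups. It was lower in *M*-cKO than in Ctrl (-0.76 ± 0.09 SE, adjusted *P* = 0.000196) and than in *F*-cKO (-0.46 ± 0.10 SE, adjusted *P* = 0.00747), and lower in *F*-cKO than in Ctrl (-0.31 ± 0.08 SE, adjusted *P* = 0.0265). In *F*-cKO, *Slc4a4* was not called without Ctrl 1 (0.109), Ctrl 3 (0.0581), *F*-cKO 2 (0.0923) or *F*-cKO 3 (0.0559), and the adjusted *P* ran from 0.0268 to 0.109 over 11 alternatives.

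*Slc4a3*, a chloride and bicarbonate exchanger of excitable cells, was at 11.3, 10.9 and 12.8 FPKM in Ctrl, 8.66, 8.59 and 7.61 in *F*-cKO, and 10.5, 10.7 and 10.2 in *M*-cKO. It fell in *F*-cKO (log2 fold change -0.50 ± 0.08 SE, adjusted *P* = 0.00449), was not called in *M*-cKO (-0.16 ± 0.07 SE, adjusted *P* = 0.109), and was higher in *M*-cKO than in *F*-cKO (0.33 ± 0.07 SE, adjusted *P* = 0.00575). *Slc4a7*, which brings sodium and bicarbonate into cells, was at 5.76, 5.2 and 5.7 FPKM in Ctrl, 6.18, 7.05 and 7.57 in *F*-cKO, and 4.93, 5.09 and 3.85 in *M*-cKO. Its *F*-cKO libraries were highest and its *M*-cKO libraries lowest, on either side of Ctrl. It was higher in *F*-cKO than in Ctrl (log2 fold change 0.31 ± 0.08 SE, adjusted *P* = 0.0247) and lower in *M*-cKO than in *F*-cKO (-0.60 ± 0.11 SE, adjusted *P* = 0.0036), and *M*-cKO with Ctrl was not called (-0.27 ± 0.10 SE, adjusted *P* = 0.0532). *Slc4a7* was not called without Ctrl 1 (0.0516), Ctrl 2 (0.0781), Ctrl 3 (0.0606), *F*-cKO 2 (0.0802) or *F*-cKO 3 (0.0552), and the adjusted *P* ran from 0.000717 to 0.0802 over 11 alternatives.

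The 6 cation-chloride cotransporters include the sodium-coupled importer *Slc12a2* and potassium-coupled exporters. In *F*-cKO 1 was called higher and 1 lower, and in *M*-cKO 1 higher and 3 lower. *Slc12a7* was at 2.22, 2.43 and 1.95 FPKM in Ctrl, 2.86, 2.98 and 3.54 in *F*-cKO, and 2.56, 2.82 and 2.96 in *M*-cKO. Both knockouts lay above all Ctrl libraries (log2 fold change 0.50 ± 0.11 SE, adjusted *P* = 0.0137 in *F*-cKO and 0.33 ± 0.10 SE, adjusted *P* = 0.0261 in *M*-cKO). In *F*-cKO, *Slc12a7* was not called without Ctrl 3 (0.0504), and the adjusted *P* ran from 1.01e-05 to 0.0504 over 11 alternatives. In *M*-cKO, *Slc12a7* was not called without Ctrl 1 (0.0698), Ctrl 3 (0.0808), *M*-cKO 2 (0.0735) or *M*-cKO 3 (0.0691), and the adjusted *P* ran from 0.00263 to 0.0808 over 11 alternatives. *Slc12a2*, through which immature neurons gain chloride, was at 10.5, 10.1 and 10.6 FPKM in Ctrl, 10, 11.2 and 11.5 in *F*-cKO, and 8.43, 9.71 and 8.09 in *M*-cKO. It was lower in *M*-cKO than in Ctrl (-0.26 ± 0.08 SE, adjusted *P* = 0.0249), and the log2 fold change ran from -0.34 to -0.20 over its alternatives. *Slc12a2* was not called without Ctrl 1 (0.0719), Ctrl 3 (0.0764), *M*-cKO 1 (0.0984) or *M*-cKO 3 (0.0764), and the adjusted *P* ran from 0.00996 to 0.0984 over 11 alternatives. *Slc12a5*, the neuronal exporter that lowers chloride as neurons mature, was at 4.28, 3.94 and 4.74 FPKM in Ctrl, 3.54, 4.06 and 2.32 in *F*-cKO, and 6.19, 5.58 and 4.17 in *M*-cKO, with *F*-cKO 3 the lowest and *M*-cKO 1 and 2 the highest. It was not called against Ctrl in *F*-cKO (-0.40, adjusted *P* = 0.131) or in *M*-cKO (0.29, adjusted *P* = 0.119) and was higher in *M*-cKO than in *F*-cKO (0.68 ± 0.19 SE, adjusted *P* = 0.0231). *Slc12a5* was not called without *M*-cKO 1 (0.0752) or *M*-cKO 2 (0.0688) or by DESeq2 (0.0575), and the adjusted *P* ran from 2.1e-10 to 0.0752 over 11 alternatives. *Slc12a9* was called lower in *F*-cKO (-0.28 ± 0.08 SE, adjusted *P* = 0.0376). *Slc12a9* was not called without Ctrl 1 (0.0514), Ctrl 2 (0.107), Ctrl 3 (0.109), *F*-cKO 1 (0.0902), *F*-cKO 2 (0.0554) or *F*-cKO 3 (0.0875), and the adjusted *P* ran from 0.0266 to 0.109 over 11 alternatives.

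Of the 7 sodium-calcium exchangers and phosphate carriers, 0 were called in *F*-cKO (edgeR; unadjusted 0 higher, 1 lower), and 3 were called higher and 1 lower in *M*-cKO. *Slc8a2*, a sodium-calcium exchanger of neurons, was at 15.3, 14.6 and 14.7 FPKM in Ctrl, 16.4, 15.8 and 16 in *F*-cKO, and 17.6, 18.54 and 20.2 in *M*-cKO. *Slc8a1*, its relative in many tissues, was at 8.62, 7.57 and 9.93 FPKM in Ctrl, 8.92, 8.82 and 8.23 in *F*-cKO, and 6.82, 6.42 and 6.2 in *M*-cKO. The pair moved in opposite directions in *M*-cKO, whose libraries were all above Ctrl for *Slc8a2* (log2 fold change 0.33 ± 0.07 SE, adjusted *P* = 0.00403) and all below it for *Slc8a1* (-0.43 ± 0.09 SE, adjusted *P* = 0.0042). *Slc20a2*, a sodium-coupled phosphate importer, was at 4.02, 4.03 and 3.88 FPKM in Ctrl, 4, 3.92 and 4.95 in *F*-cKO, and 5.63, 5.26 and 5.17 in *M*-cKO, higher in *M*-cKO than in any Ctrl library (0.42 ± 0.08 SE, adjusted *P* = 0.00231). *Slc24a3*, an exchanger of sodium for calcium and potassium, was at 3.01, 2.52 and 2.98 FPKM in Ctrl, 2.29, 2.58 and 1.72 in *F*-cKO, and 3.84, 4.05 and 3.62 in *M*-cKO. It was higher in *M*-cKO than in Ctrl (0.42 ± 0.11 SE, adjusted *P* = 0.0129) and than in *F*-cKO (0.79 ± 0.14 SE, adjusted *P* = 0.00336). Against Ctrl, *Slc24a3* was not called without *M*-cKO 2 (0.0532), and the adjusted *P* ran from 0.00398 to 0.0532 over 11 alternatives. *Slc20a1*, the most abundant of the group (14.9 FPKM in Ctrl), was not called in *F*-cKO (0.03, adjusted *P* = 0.796) or *M*-cKO (-0.02, adjusted *P* = 0.878).

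Of the 23 metal and heme carriers, 1 was called higher and 4 lower in *F*-cKO, and 0 higher and 4 lower in *M*-cKO (unadjusted 5 and 7). *Slc48a1*, which moves heme out of lysosomes, was at 18.7, 20 and 19.8 FPKM in Ctrl, 16.6, 14.5 and 14.6 in *F*-cKO, and 23.1, 20.3 and 24 in *M*-cKO. It fell in *F*-cKO (log2 fold change -0.37 ± 0.08 SE, adjusted *P* = 0.0106), stood above Ctrl in *M*-cKO without being called (0.20 ± 0.08 SE, adjusted *P* = 0.0704), and was higher in *M*-cKO than in *F*-cKO (0.55 ± 0.08 SE, adjusted *P* = 0.00125). *Slc41a2*, a magnesium carrier, was at 1.75, 1.58 and 2.03 FPKM in Ctrl, 1.05, 0.914 and 0.632 in *F*-cKO, and 1.27, 1.06 and 1.25 in *M*-cKO. Both knockouts lay below all Ctrl libraries, *F*-cKO lowest (log2 fold change -1.05 ± 0.20 SE, adjusted *P* = 0.00773 in *F*-cKO and -0.59 ± 0.15 SE, adjusted *P* = 0.0121 in *M*-cKO). In *M*-cKO, *Slc41a2* was not called without Ctrl 3 (0.0555) or *M*-cKO 2 (0.0566), and the adjusted *P* ran from 0.00625 to 0.0566 over 11 alternatives. *Slc30a7*, which loads zinc into the Golgi, was at 2.49, 2.44 and 2.51 FPKM in Ctrl, 2.94, 2.97 and 3.06 in *F*-cKO, and 2.77, 3.04 and 2.33 in *M*-cKO, above Ctrl in all 3 *F*-cKO libraries (log2 fold change 0.26 ± 0.07 SE, adjusted *P* = 0.0295). *Slc30a7* was not called without Ctrl 1 (0.0733), Ctrl 2 (0.0754), Ctrl 3 (0.0706), *F*-cKO 2 (0.0832) or *F*-cKO 3 (0.0674) or with no filter on low counts (0.058) or in a fit of all 9 libraries (0.0531), and the adjusted *P* ran from 0.0279 to 0.0832 over 11 alternatives. The copper carrier *Slc31a2* was lower in *M*-cKO (3.68, 3.6 and 2.83 FPKM, Ctrl 5.73, 5.29 and 4.73, -0.65 ± 0.15 SE, adjusted *P* = 0.00695). So was the zinc importer *Slc39a2* (1.83, 1.52 and 1.12 FPKM, Ctrl 2.68, 2.46 and 3.05, -0.88 ± 0.18 SE, adjusted *P* = 0.00451). *Slc30a10*, a manganese exporter, was at 11.1, 10.9 and 8.17 FPKM in Ctrl, 11.1, 14.2 and 21.3 in *F*-cKO, and 8.92, 8.64 and 8.36 in *M*-cKO. *F*-cKO 2 and 3 were above the rest, and it was lower in *M*-cKO than in *F*-cKO (-0.86 ± 0.19 SE, adjusted *P* = 0.0079). The abundant zinc importers *Slc39a6* and *Slc39a3* (26.7 FPKM in Ctrl) were not called in *F*-cKO (0.05, adjusted *P* = 0.605 and -0.18, adjusted *P* = 0.0739) or *M*-cKO (0.04, adjusted *P* = 0.69 and -0.06, adjusted *P* = 0.55).

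Of the 9 carriers of monocarboxylates and related substrates, 1 was called higher and 2 lower in each knockout. *Slc16a14*, whose substrate is not settled, was at 1.52, 1.22 and 1.13 FPKM in Ctrl, 2.23, 2.49 and 2.78 in *F*-cKO, and 2.38, 2.59 and 2.09 in *M*-cKO. All libraries of both knockouts lay above all Ctrl libraries (log2 fold change 0.94 ± 0.17 SE, adjusted *P* = 0.00653 in *F*-cKO and 0.85 ± 0.17 SE, adjusted *P* = 0.00302 in *M*-cKO). *Slc16a1*, the lactate carrier of vessels and glia (6.84 FPKM in Ctrl), was not called in *F*-cKO (-0.01, adjusted *P* = 0.935) or *M*-cKO (0.12, adjusted *P* = 0.349). *Slc16a4* was lower in *M*-cKO than in *F*-cKO (0.67, 0.855 and 0.874 compared with 1.2, 1.46 and 2.1 FPKM, adjusted *P* = 0.0114).

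Of the 12 sugar and polyol carriers, 0 were called higher and 1 lower in *F*-cKO (edgeR; unadjusted 0 and 1), and 1 higher and 2 lower in *M*-cKO. *Slc2a3*, the glucose carrier of neurons, was at 6.85, 6.72 and 6.9 FPKM in Ctrl, 5.75, 5.78 and 5.24 in *F*-cKO, and 7.22, 7.11 and 7 in *M*-cKO. The *F*-cKO libraries were below all others (log2 fold change -0.30 ± 0.07 SE, adjusted *P* = 0.0152, and in *M*-cKO against *F*-cKO 0.34 ± 0.07 SE, adjusted *P* = 0.00546). Against Ctrl, *Slc2a3* was not called without Ctrl 3 (0.0513), and the adjusted *P* ran from 0.00676 to 0.0513 over 11 alternatives. *Slc2a4*, the insulin-responsive glucose carrier, was at 1.1, 1.1 and 1.06 FPKM in Ctrl, 1.23, 1.32 and 1.68 in *F*-cKO, and 1.67, 2.01 and 1.87 in *M*-cKO. The *M*-cKO libraries were above all of Ctrl, and *F*-cKO lay between with 1 library inside the *M*-cKO range (log2 fold change 0.76 ± 0.16 SE, adjusted *P* = 0.00428, and in *F*-cKO 0.36 ± 0.18 SE, adjusted *P* = 0.182). *Slc37a3*, of the sugar-phosphate exchanger family (16.2 FPKM in Ctrl), was lower in *M*-cKO (-0.24 ± 0.06 SE, adjusted *P* = 0.0122), as was *Slc50a1*, a glucose carrier of the Golgi (11.7 FPKM, -0.30 ± 0.10 SE, adjusted *P* = 0.0404). *Slc37a3* was not called without *M*-cKO 1 (0.0653), and the adjusted *P* ran from 0.00847 to 0.0653 over 11 alternatives. *Slc50a1* was not called without Ctrl 1 (0.0576), Ctrl 2 (0.126), Ctrl 3 (0.093), *M*-cKO 1 (0.139), *M*-cKO 2 (0.0809) or *M*-cKO 3 (0.0676) or by DESeq2 (0.0719) or with no filter on low counts (0.123), and the adjusted *P* ran from 0.0314 to 0.139 over 11 alternatives.

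Of the 13 nucleoside, vitamin and choline carriers, 0 were called higher and 3 lower in *F*-cKO (edgeR; unadjusted 1 and 5), and 2 higher and 1 lower in *M*-cKO. *Slc29a4* was at 45.5, 49.1 and 53.5 FPKM in Ctrl, 41.7, 39.9 and 38 in *F*-cKO, and 38.7, 42.2 and 46.8 in *M*-cKO, with all *F*-cKO libraries below Ctrl and *M*-cKO overlapping it (log2 fold change -0.32 ± 0.07 SE, adjusted *P* = 0.0144, and in *M*-cKO -0.22 ± 0.08 SE, adjusted *P* = 0.0644). *Slc29a4* was not called without Ctrl 3 (0.0525) or *F*-cKO 2 (0.0521), and the adjusted *P* ran from 0.00038 to 0.0525 over 11 alternatives. *Slc29a1*, which equilibrates adenosine, was at 8.83, 9.21 and 11 FPKM in Ctrl, 7.66, 6.72 and 6.33 in *F*-cKO, and 7.74, 9.38 and 9.64 in *M*-cKO and fell in *F*-cKO (-0.50 ± 0.11 SE, adjusted *P* = 0.0125). *Slc46a1*, the proton-coupled folate carrier, was at 9.33, 9.97 and 11.6 FPKM in Ctrl, 7.12, 8.29 and 7.85 in *F*-cKO, and 10.4, 10.4 and 10 in *M*-cKO. It fell in *F*-cKO (-0.42 ± 0.10 SE, adjusted *P* = 0.0203) and was higher in *M*-cKO than in *F*-cKO (0.40 ± 0.09 SE, adjusted *P* = 0.00816). Against Ctrl, *Slc46a1* was not called without Ctrl 3 (0.0716) or *F*-cKO 1 (0.0533), and the adjusted *P* ran from 0.00102 to 0.0716 over 11 alternatives. *Slc19a1*, the other folate carrier, was at 4.22, 4.79 and 4.31 FPKM in Ctrl, 4.88, 4.49 and 4.34 in *F*-cKO, and 5.71, 5.86 and 6.3 in *M*-cKO. It rose in *M*-cKO (log2 fold change 0.41 ± 0.09 SE, adjusted *P* = 0.0055), where every library was above all of Ctrl. *Slc44a1*, a choline carrier, was at 5.42, 5.18 and 5.01 FPKM in Ctrl, 6.11, 6 and 5.99 in *F*-cKO, and 4.33, 4.36 and 4.08 in *M*-cKO. *F*-cKO lay above Ctrl and *M*-cKO below it without overlap, and the difference between the knockouts was called (log2 fold change -0.51 ± 0.07 SE, adjusted *P* = 0.000855). Against Ctrl it was called in *M*-cKO (-0.30 ± 0.08 SE, adjusted *P* = 0.012) and not in *F*-cKO (0.20 ± 0.07 SE, adjusted *P* = 0.0595). Against Ctrl, *Slc44a1* was not called without Ctrl 1 (0.0518), and the adjusted *P* ran from 0.00685 to 0.0518 over 11 alternatives.

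Of the 22 nucleotide sugar carriers and relatives, 0 were called higher and 1 lower in *F*-cKO (edgeR; unadjusted 2 and 3), and 4 higher and 5 lower in *M*-cKO. *Slc35a4*, whose substrate is not settled, was at 17.3, 17.5 and 16.2 FPKM in Ctrl, 19, 19.3 and 19.7 in *F*-cKO, and 26.1, 25.1 and 27.3 in *M*-cKO. The *M*-cKO libraries were above all others, and *F*-cKO lay between them and Ctrl (log2 fold change 0.61 ± 0.06 SE, adjusted *P* = 8.28e-05, and against *F*-cKO 0.42 ± 0.06 SE, adjusted *P* = 0.00111). *Slc35b2*, which brings the sulfate donor of proteoglycans into the Golgi, was at 17.1, 18.9 and 16 FPKM in Ctrl, 17.6, 16.4 and 16.8 in *F*-cKO, and 23.7, 24.2 and 26 in *M*-cKO, highest in all *M*-cKO libraries (log2 fold change 0.50 ± 0.08 SE, adjusted *P* = 0.000743, and against *F*-cKO 0.53 ± 0.07 SE, adjusted *P* = 0.000486). *Slc35e4* was at 3.85, 4.02 and 4.39 FPKM in Ctrl, 3.78, 3.75 and 3.13 in *F*-cKO, and 6.4, 6.24 and 6.64 in *M*-cKO, with *F*-cKO below Ctrl and *M*-cKO above it (log2 fold change 0.65 ± 0.10 SE, adjusted *P* = 0.000785, and in *F*-cKO -0.21 ± 0.12 SE, adjusted *P* = 0.246, and between knockouts 0.85 ± 0.11 SE, adjusted *P* = 0.000639). *Slc35c1*, the fucose donor carrier of the Golgi, was higher in *M*-cKO (6.65, 5.32 and 6.17 FPKM) than in *F*-cKO (3.84, 3.73 and 4.19 FPKM, 0.62 ± 0.12 SE, adjusted *P* = 0.00384).

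*Slc35f1*, the most abundant of the group, was at 36.1, 31 and 36.5 FPKM in Ctrl, 33.3, 31.2 and 31.8 in *F*-cKO, and 26.3, 26 and 25 in *M*-cKO. It fell in *M*-cKO, below all other libraries (log2 fold change -0.43 ± 0.07 SE, adjusted *P* = 0.00108, and against *F*-cKO -0.33 ± 0.06 SE, adjusted *P* = 0.0031). *Slc35b4*, a Golgi carrier for xylose and glucosamine donors, was at 5.35, 5.82 and 5.5 FPKM in Ctrl, 5.46, 5.6 and 5.46 in *F*-cKO, and 4.23, 4.48 and 4.41 in *M*-cKO. It too was lowest in *M*-cKO without overlap (log2 fold change -0.35 ± 0.07 SE, adjusted *P* = 0.00335, and against *F*-cKO -0.34 ± 0.07 SE, adjusted *P* = 0.0046). *Slc35b1*, of the endoplasmic reticulum (30.2 FPKM in Ctrl), was not called in *F*-cKO (-0.06, adjusted *P* = 0.536) or *M*-cKO (-0.08, adjusted *P* = 0.347).

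Among the 6 members of the fatty acid, acetyl-CoA and bile acid families, *Slc27a3* was the 1 member of all 161 called in opposite directions in the knockouts. This acyl-CoA synthetase was at 8.63, 9.97 and 11.3 FPKM in Ctrl, 7.55, 7.5 and 7.05 in *F*-cKO, and 13.4, 13.1 and 12.6 in *M*-cKO. *F*-cKO lay below all Ctrl libraries and *M*-cKO above them, and the Ctrl libraries spread over the gap between. It fell in *F*-cKO (log2 fold change -0.45 ± 0.11 SE, adjusted *P* = 0.0198), rose in *M*-cKO (0.38 ± 0.10 SE, adjusted *P* = 0.016), and differed between the knockouts (0.81 ± 0.08 SE, adjusted *P* = 0.000139). In *F*-cKO, *Slc27a3* was not called without Ctrl 3 (0.0729) or *F*-cKO 2 (0.0592), and the adjusted *P* ran from 0.00146 to 0.0729 over 11 alternatives. In *M*-cKO, *Slc27a3* was not called without Ctrl 1 (0.064) or *M*-cKO 2 (0.0513), and the adjusted *P* ran from 0.000546 to 0.064 over 11 alternatives. The difference between knockouts was called in all 11 alternatives. In Ribo-seq it read 4.95, 4.13 and 3.48 RPKM in Ctrl, 1.96, 4.75 and 3.98 in *F*-cKO, and 5.34, 4.2 and 5.01 in *M*-cKO and was not called in *M*-cKO (0.22 ± 0.17 SE, adjusted *P* = 0.398). The more abundant *Slc27a4* (20 FPKM) and *Slc27a1* (16.7 FPKM) were not called in *F*-cKO (-0.19, adjusted *P* = 0.125 and -0.17, adjusted *P* = 0.132) or *M*-cKO (-0.09, adjusted *P* = 0.29 and -0.11, adjusted *P* = 0.2).

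The 5 genes that bear a carrier's name encode scaffold and other proteins. *Slc9a3r2*, a scaffold that binds exchangers and receptors under the membrane, was at 6.85, 8.25 and 8.74 FPKM in Ctrl, 4.89, 4.38 and 4.1 in *F*-cKO, and 5.53, 6.04 and 7.14 in *M*-cKO. All *F*-cKO libraries lay below the rest, and *M*-cKO overlapped Ctrl (log2 fold change -0.85 ± 0.12 SE, adjusted *P* = 0.00379, and in *M*-cKO -0.36 ± 0.13 SE, adjusted *P* = 0.0533). *Slc2a4rg-ps*, a pseudogene, was at 4.26, 4.94 and 4.65 FPKM in Ctrl, 3.2, 4.73 and 4.11 in *F*-cKO, and 2.81, 2.86 and 2.25 in *M*-cKO, lowest in *M*-cKO (log2 fold change -0.81 ± 0.13 SE, adjusted *P* = 0.0011). *Slc9a3r1* (23.3 FPKM in Ctrl) and *Slc7a6os* (12) were not called in *F*-cKO (-0.10, adjusted *P* = 0.398 and -0.04, adjusted *P* = 0.72) or *M*-cKO (-0.12, adjusted *P* = 0.412 and -0.04, adjusted *P* = 0.673).

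Ribo-seq asked whether ribosome occupancy of the same carriers changed. Of 161 members 152 had counts in all 9 Ribo-seq libraries, and *Slc10a4*, *Slc2a4rg-ps*, *Slc39a2*, *Slc16a4* and 5 others had blank counts and no test. In *F*-cKO no member passed: edgeR called 0 higher and 0 lower of 152, against 0% and 0% of 14335 genes. DESeq2 also called 0 members, with 5 genes higher and 1 lower of all, and the fit of all 9 libraries 0 members, with 0 and 1. At an unadjusted *P* below 0.05, edgeR gave 0 higher and 0 lower, against 1.58% and 0.635% of all genes, and DESeq2 10 higher and 0 lower. The members' median was 0.81 with *F*-cKO 2, compared with 0.05 over all genes, and -0.26 without it, compared with -0.00 over all genes. Without *F*-cKO 2, edgeR called 0 members of 152 and 1 gene of 14336, with 0 members higher and 5 lower at an unadjusted *P* below 0.05, compared with 339 higher and 218 lower over all genes. The biological coefficient of variation fell from 0.379 to 0.204.

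The members with the smallest *P* in each direction in Ribo-seq *F*-cKO show how single genes read with and without the library. *Slc39a10*, a zinc importer, was at 3.58, 4.18 and 4.79 RPKM in Ctrl, 5.75, 21.3 and 4.58 in *F*-cKO, and 6.06, 5.36 and 6.05 in *M*-cKO, and its log2 fold change was 1.45 with *F*-cKO 2 and 0.27 without. *Slc33a1*, which brings acetyl-CoA into the endoplasmic reticulum, was at 0.815, 0.817 and 0.618 RPKM in Ctrl, 1.05, 5.79 and 0.717 in *F*-cKO, and 0.821, 0.673 and 0.702 in *M*-cKO, with 1.86 and 0.20. In both, *F*-cKO 2 stood far above the other 8 libraries. *Slc9a5*, a sodium and proton exchanger of neurons, was at 0.565, 0.538 and 0.541 RPKM in Ctrl, 1.07, 1.93 and 0.576 in *F*-cKO, and 1.16, 1.49 and 0.839 in *M*-cKO, with 1.20 and 0.54, and *F*-cKO 1 was also above Ctrl. Among those below Ctrl were *Slc9a3r1* (-0.32 with and -0.15 without), *Slc9a3r2* (-0.41 and -0.10) and *Slc41a2* (-0.38 and -0.69). *Slc41a2* read 0.04 without *F*-cKO 1, where its level of 0.318 RPKM was the lowest of all 9 libraries. The smallest adjusted *P* of a member was 0.73 with *F*-cKO 2 and 0.875 without it.

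In Ribo-seq of *M*-cKO, which does not use that library, 3 of 151 members were called higher and 8 lower, against 7.13% and 7.5% of 14314 genes (member median -0.03, all genes -0.00). *Slc38a1* was at 5.87, 6.19 and 5.94 RPKM in Ctrl, 3.74, 17.1 and 5.19 in *F*-cKO, and 3.9, 3.76 and 3.84 in *M*-cKO, with every *M*-cKO library below all of Ctrl. Its Ribo-seq level fell in *M*-cKO (log2 fold change -0.63 ± 0.08 SE, adjusted *P* = 0.00734), while its RNA level did not (-0.05, adjusted *P* = 0.536). *Slc38a1* was not called without Ctrl 2 (0.0527) or in a fit of all 9 libraries (0.608), and the adjusted *P* ran from 1.9e-07 to 0.608 over 12 alternatives. *Slc7a2* was at 0.479, 0.456 and 0.568 RPKM in Ctrl, 0.393, 1.53 and 0.434 in *F*-cKO, and 0.226, 0.189 and 0.22 in *M*-cKO and *Slc26a7* at 0.52, 0.753 and 0.823 RPKM in Ctrl, 0.395, 1.85 and 0.602 in *F*-cKO, and 0.134, 0.0606 and 0.302 in *M*-cKO. For each, all *M*-cKO libraries were the lowest, as in RNA-seq (-1.23 ± 0.21 SE, adjusted *P* = 0.0163, and -2.02 ± 0.48 SE, adjusted *P* = 0.0342). *Slc7a2* was not called without Ctrl 1 (0.0551), Ctrl 2 (0.0695) or Ctrl 3 (0.0593) or in a fit of all 9 libraries (0.31), and the adjusted *P* ran from 0.00304 to 0.31 over 12 alternatives. *Slc26a7* was not called without Ctrl 1 (0.0741), Ctrl 2 (0.114), Ctrl 3 (0.102), *M*-cKO 1 (0.0928) or *M*-cKO 2 (0.0519) or in a fit of all 9 libraries (0.211), and the adjusted *P* ran from 0.00149 to 0.211 over 12 alternatives.

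*Slc32a1* was at 1.79, 1.28 and 0.941 RPKM in Ctrl, 1.31, 4.97 and 1.25 in *F*-cKO, and 2.82, 4.77 and 2.33 in *M*-cKO, higher in *M*-cKO than in any Ctrl library (log2 fold change 1.32 ± 0.36 SE, adjusted *P* = 0.0492). *Slc9a5* was higher (1.10 ± 0.27 SE, adjusted *P* = 0.0361) with *M*-cKO 2 the highest of the group, and *Slc39a10* was higher (0.49 ± 0.13 SE, adjusted *P* = 0.0454). Of interneuron markers 3 of 7 were called higher in *M*-cKO Ribo-seq, where their sum was 57.1, 38.2 and 40.9 RPKM in Ctrl, 47.3, 33.1 and 45.9 in *F*-cKO, and 109, 120 and 62.6 in *M*-cKO, and their part was not tested. *Slc4a4* (-0.80 ± 0.21 SE, adjusted *P* = 0.0425), *Slc6a11* (-0.73 ± 0.20 SE, adjusted *P* = 0.0461) and *Slc29a4* (-0.53 ± 0.14 SE, adjusted *P* = 0.0442) were lower, as was *Slc7a1*, a carrier of arginine and lysine (-0.65 ± 0.15 SE, adjusted *P* = 0.0342), whose RNA was not called (-0.04, adjusted *P* = 0.675). For *Slc7a1* the direct edgeR test of the difference between the assays did not pass (-0.53 ± 0.15 SE, adjusted *P* = 0.062). *Slc14a2*, a urea carrier, was at 0.84, 0.769 and 0.835 RPKM in Ctrl, 0.433, 1.58 and 0.727 in *F*-cKO, and 0.417, 0.412 and 0.496 in *M*-cKO and was lower (-0.87 ± 0.23 SE, adjusted *P* = 0.0467). None of the 11 calls held in every alternative. 0 members were called when all 9 libraries were fitted at once, and 0 higher without any 1 of Ctrl 1, Ctrl 2, Ctrl 3, *M*-cKO 1 or *M*-cKO 2. Without those libraries in turn the number called lower was 1, 0, 1, 2 and 2, and without *M*-cKO 3 it was 5 higher and 10 lower. Over all genes, 1020 were called higher and 1073 lower in the main fit. The fit of all 9 libraries, which holds *F*-cKO 2, called 29 and 6. Leaving out the same 5 libraries in turn gave 230, 115, 269, 500 and 771 higher. The same fits gave 160, 62, 192, 380 and 524 lower, and without *M*-cKO 3 there were 1303 higher and 1244 lower. At an unadjusted *P* below 0.05 edgeR gave 9 members higher and 22 lower, compared with 2376 and 2500 of 14314 genes. DESeq2 called 6 members higher and 12 lower, compared with 1617 and 1512 of 13705 genes.

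Between the knockouts, edgeR called 0 of 151 members in either direction in Ribo-seq, against 0% of 14262 genes (unadjusted edgeR 0 higher and 3 lower, all genes 4.98% and 3.11%; DESeq2 unadjusted 0 and 16). DESeq2 also called 0 members, with 178 genes higher and 28 lower of all, and the fit of all 9 libraries 0 members, with 20 and 5. The members' median was -0.83 with *F*-cKO 2 and 0.20 without it, where 0 members passed. At an unadjusted *P* below 0.05 that fit had 9 of 151 members higher and 2 lower, compared with 1042 and 867 of 14282 genes. *Slc26a7* differed by -2.56 with and -1.50 without *F*-cKO 2, and *Slc7a2* by -1.96 and -0.91. *Slc38a5*, a glutamine carrier, differed by -3.64 with the library, where it read 11.9 RPKM in *F*-cKO 2 and between 0.281 and 0.819 in the others, and by -0.30 without. *Slc41a1*, a magnesium carrier, was 1.16 and 1.70, a value that rested on *M*-cKO 2 (12.6 RPKM, *M*-cKO 1 1.36 and *M*-cKO 3 1.97) and read -0.58 without it. *Slc9a3r2* (0.50 with and 0.20 without *F*-cKO 2) and *Slc27a3* (0.40 and 0.75) were not called.

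Translational efficiency (TE), the ratio of Ribo-seq to RNA-seq, was tested as the difference between the genotype effects in both assays, so the values below are log2 differences. In *F*-cKO, edgeR called 0 of 152 members higher and 0 lower, against 0% and 0% of 13225 genes (unadjusted edgeR 5 higher and 0 lower, all genes 3.11% and 6.18%; DESeq2 unadjusted 12 and 0). DESeq2 also called 0 members, with 5 genes higher and 39 lower of all. The members' median was 0.89 with *F*-cKO 2 and -0.15 without it, where at an unadjusted *P* below 0.05 6 of 152 were higher and 14 lower, compared with 812 and 1008 of 13225 genes. The smallest adjusted *P* of a member in that fit was 0.104, that of *Slc38a1*, which stood at 0.32 with and -0.75 without *F*-cKO 2. *Slc22a6* stood at 3.58 with and 2.54 without *F*-cKO 2, *Slc6a13* at 2.91 and 2.07, and *Slc22a8* at 2.25 and 1.41. In Ribo-seq, *Slc22a6* was at 0.242, 0.513 and 0.466 RPKM in Ctrl, 0.204, 1.73 and 0.605 in *F*-cKO, and 0.0452, 0.511 and 0.276 in *M*-cKO, and its log2 fold change in *F*-cKO was 1.14 with and 0.03 without *F*-cKO 2. For *Slc6a13* these were 0.62 and -0.28, and for *Slc22a8* 0.95 and 0.02. In edgeR none of the 3 was called in Ribo-seq *F*-cKO, with or without *F*-cKO 2. On the lower side, *Slc9a3r1* was at -0.26 and -0.05, *Slc6a8*, the creatine carrier, at -0.19 and -0.61, and *Slc16a14* at -0.17 and -1.08. Without Ribo-seq *F*-cKO 1 or *F*-cKO 3 the value of *Slc16a14* was 0.10 and 0.05.

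In *M*-cKO, TE was called higher for 2 of 151 members and lower for 1, against 1.89% and 1.18% of 13208 genes. *Slc38a1* had 17.2 to 15.9 FPKM in Ctrl and *M*-cKO RNA-seq, with little difference, and a lower Ribo-seq level in every *M*-cKO library. Its TE was lower (-0.51 ± 0.09 SE, adjusted *P* = 0.0141). *Slc38a1* was not called without RNA-seq *M*-cKO 1 (0.0504), and the adjusted *P* ran from 1.66e-07 to 0.0504 over 19 alternatives. *Slc9a5* was at 6.77, 7.33 and 6.92 FPKM in Ctrl, 6.45, 6.91 and 5.93 in *F*-cKO, and 7.25, 7.34 and 7.01 in *M*-cKO in RNA-seq, where the groups overlapped, and its Ribo-seq level was above Ctrl in every *M*-cKO library (TE 1.12 ± 0.24 SE, adjusted *P* = 0.0263). *Slc9a8*, a proton exchanger of Golgi and endosomes, was at 4.43, 4.71 and 4.48 FPKM in Ctrl, 3.37, 4.31 and 4.13 in *F*-cKO, and 3.86, 3.72 and 3.33 in *M*-cKO and 0.37, 0.292 and 0.347 RPKM in Ctrl, 0.291, 2.48 and 0.328 in *F*-cKO, and 0.494, 0.48 and 0.396 in *M*-cKO. Its RNA was lower in *M*-cKO (-0.33 ± 0.08 SE, adjusted *P* = 0.00991), its Ribo-seq level lay above all of Ctrl without being called (0.45 ± 0.22 SE, adjusted *P* = 0.192), and its TE was higher (0.84 ± 0.18 SE, adjusted *P* = 0.0298). *Slc9a5* was not called without RNA-seq Ctrl 1 (0.0536), RNA-seq Ctrl 2 (0.066), RNA-seq Ctrl 3 (0.0683), RNA-seq *M*-cKO 1 (0.0697), RNA-seq *M*-cKO 2 (0.0662), RNA-seq *M*-cKO 3 (0.0658) or Ribo-seq Ctrl 2 (0.0708), and the adjusted *P* ran from 0.000361 to 0.0708 over 19 alternatives. *Slc9a8* was not called without RNA-seq Ctrl 1 (0.0623), RNA-seq Ctrl 2 (0.0771), RNA-seq Ctrl 3 (0.0784), RNA-seq *M*-cKO 1 (0.0651), RNA-seq *M*-cKO 2 (0.0698), RNA-seq *M*-cKO 3 (0.0751), Ribo-seq Ctrl 2 (0.079) or Ribo-seq *M*-cKO 2 (0.051), and the adjusted *P* ran from 0.00548 to 0.079 over 19 alternatives. The number called higher was 0 without each RNA-seq library in turn or without Ribo-seq Ctrl 2, 1 without Ribo-seq *M*-cKO 2 and 6 without Ribo-seq *M*-cKO 3, and the number called lower was 0 without RNA-seq *M*-cKO 1 and 2 without Ribo-seq Ctrl 3, *M*-cKO 1 or *M*-cKO 3. Over all genes, 46 to 108 were called higher without 1 RNA-seq library and 77 without Ribo-seq Ctrl 2. It was 215 without Ribo-seq *M*-cKO 2 and 573 without Ribo-seq *M*-cKO 3, compared with 249 with every library. All genes called lower in the fits named for lower numbered 19, 267, 249 and 481, compared with 156. All 12 bicarbonate and proton exchangers had a TE difference above 0 in *M*-cKO (median 0.38, all genes 0.02), of which 2 passed. Genes of a group are not independent replicates, the other substrate groups are not given here, and no group was tested as a set. The group's summed Ribo-seq level overlapped, at 20.5, 21.2 and 20.7 RPKM in Ctrl and 19.2, 21.7 and 19.8 in *M*-cKO. Its summed RNA level was 69.3, 68.7 and 72.2 FPKM in Ctrl and lower in *M*-cKO, at 64.8, 66.9 and 60.7.

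**Figure D4:**
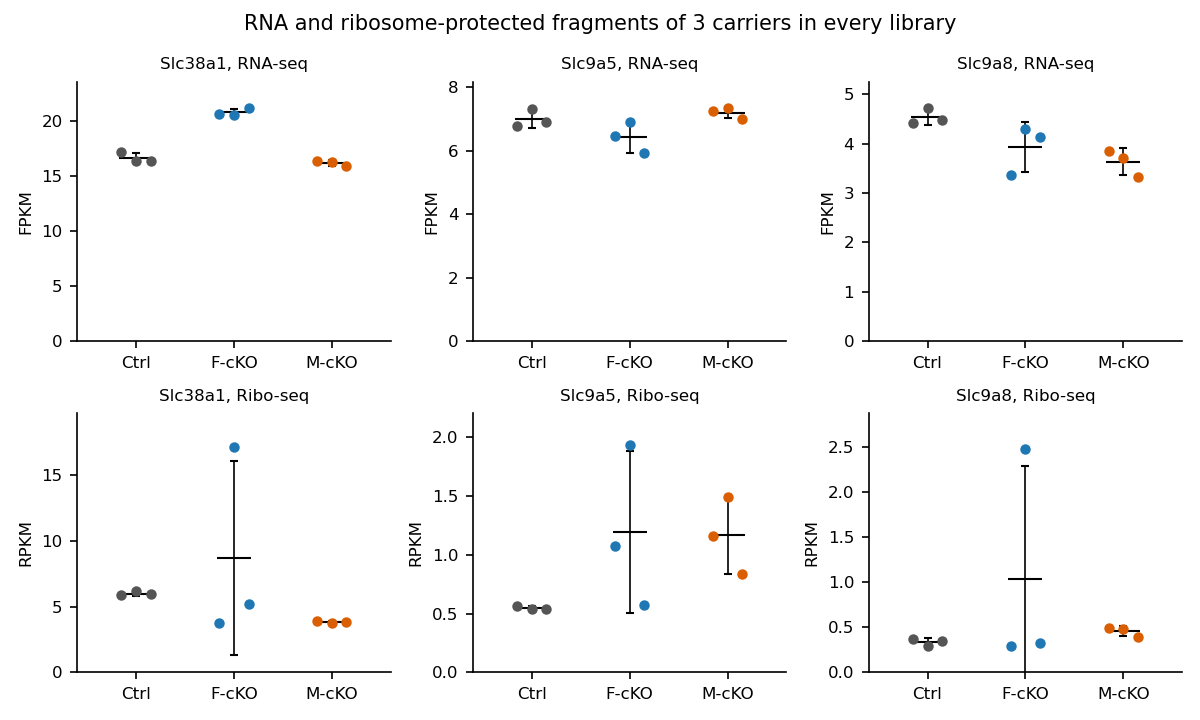
Level of *Slc38a1*, *Slc9a5* and *Slc9a8* in RNA-seq (FPKM, top) and Ribo-seq (RPKM, bottom), in Ctrl, *F*-cKO and *M*-cKO (x axis); points are libraries, the black bar is the mean and the error bar the SD of 3 libraries. In *M*-cKO, *Slc38a1* is lower in Ribo-seq alone (6 RPKM in Ctrl and 3.84 in *M*-cKO), and *F*-cKO 2 is the high Ribo-seq point of each gene.

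Genes that work with the carriers were read from fixed lists. Of the 6 sodium-potassium ATPase subunits, whose pump sets the sodium gradient, 4 were called lower and 0 higher in *F*-cKO, and 3 lower and 1 higher in *M*-cKO. *Atp1b1* was at 36.2, 23.8 and 37.8 FPKM in Ctrl, 17.5, 17.7 and 13.3 in *F*-cKO, and 21.2, 21.5 and 18.4 in *M*-cKO, below Ctrl in all libraries of both knockouts (log2 fold change -1.02 ± 0.17 SE, adjusted *P* = 0.00486 in *F*-cKO and -0.69 ± 0.14 SE, adjusted *P* = 0.00442 in *M*-cKO). Of the 3 chaperones of monocarboxylate carriers, 2 were lower in each knockout, and *Bsg* fell in *F*-cKO (-0.44 ± 0.07 SE, adjusted *P* = 0.00409) and *M*-cKO (-0.35 ± 0.08 SE, adjusted *P* = 0.00739). Of the 7 organic anion carriers of the Slco family, 1 was higher and 2 lower in *F*-cKO, and 0 higher and 2 lower in *M*-cKO (unadjusted 0 and 2). *Slco1c1*, the thyroxine carrier of vessels and astroglia, was at 7.46, 7.05 and 11 FPKM in Ctrl, 4.44, 3.89 and 3.51 in *F*-cKO, and 2.03, 2.73 and 2.95 in *M*-cKO (log2 fold change -1.11 ± 0.16 SE, adjusted *P* = 0.00396 in *F*-cKO and -1.73 ± 0.18 SE, adjusted *P* = 8.03e-05 in *M*-cKO). Of the 7 carriers left out by name, 1 was higher and 2 lower in each knockout. In Ribo-seq of *M*-cKO 0 of the chaperones and of these 7 carriers were called (unadjusted 0, and 1 higher with 1 lower), while 1 Slco member and 1 ATPase subunit were lower. None of these lists had a called gene in Ribo-seq *F*-cKO.

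Other cell type markers were counted beside the carriers. Of 7 endothelial markers, led by *Cldn5*, 3 were lower in *F*-cKO and 1 in *M*-cKO, with sums of 54, 58.4 and 58.4 FPKM in Ctrl, 45.4, 39.8 and 40.8 in *F*-cKO, and 44.5, 55.4 and 61.8 in *M*-cKO. Of 5 pericyte markers, led by *Rgs5*, 3 were lower in *F*-cKO and 1 in *M*-cKO, with sums of 27, 26.7 and 31.4 FPKM in Ctrl, 24.6, 22 and 20.8 in *F*-cKO, and 22, 24 and 24.8 in *M*-cKO. Of 5 microglial markers tested of 6, led by *C1qa*, 0 were called in either knockout (unadjusted 0 in *F*-cKO and 1 lower in *M*-cKO), with sums of 13.2, 16.5 and 14.8 FPKM in Ctrl, 15.1, 11 and 11.9 in *F*-cKO, and 12.7, 17.4 and 19.2 in *M*-cKO. Of 6 erythroid markers tested of 7, led by *Hba-a1*, 1 was lower in *F*-cKO and 0 in *M*-cKO (unadjusted 0), with sums of 484, 878 and 475 FPKM in Ctrl, 416, 357 and 439 in *F*-cKO, and 486, 581 and 707 in *M*-cKO. Of 8 radial glia markers, led by *Fabp7*, 5 were higher and 1 lower in *F*-cKO, and 3 and 1 in *M*-cKO, with sums of 834, 748 and 830.2 FPKM in Ctrl, 772, 724 and 711 in *F*-cKO, and 560.2, 549 and 591 in *M*-cKO. Of 4 intermediate progenitor markers, led by *Neurog2*, 3 were higher in *F*-cKO and 2 in *M*-cKO, with sums of 193, 206 and 131 FPKM in Ctrl, 233, 273 and 289 in *F*-cKO, and 226, 227 and 242 in *M*-cKO. Of 6 excitatory neuron markers 3 were higher in *F*-cKO, and 5 higher and 1 lower in *M*-cKO. No marker of these lists was at 0 in all libraries, and their part in the carriers' results was not tested.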

How the data were processed

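RNA-seq and Ribo-seq counts, RNA-seq FPKM and Ribo-seq RPKM were used as deposited. The authors aligned RNA-seq reads with HISAT2 2.0.5, mapped Ribo-seq reads with TopHat2, counted Ribo-seq with HTSeq, and made the FPKM and RPKM values; the notes name mm10. The tool that made the RNA-seq counts is not stated. Ribo-seq counts of 40490 genes are blank in 8 of 9 libraries and were left out. Members and lists were chosen with earlier results of these data known. Symbols came from a reference list of gene names, which matched 54723 of 55153 genes. Overlaps came from RefSeq, GRCm38.p6, which held all 161 members.

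Counts were fitted in R 4.3.3 with edgeR 4.0.16 (filterByExpr with a minimum count of 10 and minimum total of 15, TMM, quasi-likelihood test, Benjamini-Hochberg over all genes tested, called at an adjusted *P* below 0.05), over the 6 libraries of each comparison. For TE, an interaction term between assay and genotype was tested in 12 libraries. SE is the standard error of the log2 fold change. With 3 against 3 libraries, an exact permutation test cannot give a *P* below 0.1, and none was used. Single genes named were, per comparison, called members whose groups do not overlap (up to 10 per direction in RNA-seq and 8 in Ribo-seq and TE, ranked by adjusted *P*), or where none was called the 3 per direction with the smallest *P*, the 2 most abundant in each substrate group, those called in opposite directions, the 3 genes on each side of the floor, and the genes of the fixed lists. *Slc22a5*, *Slc18a2*, *Slc38a3*, *Slc38a10*, *Slc12a5*, *Slc31a2*, *Slc39a2*, *Slc30a10*, *Slc16a4*, *Slc29a1*, and comparisons of a named gene beyond the one that named it, were chosen after their values were seen.

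Alternatives were DESeq2 1.42.0, fits of all 9 libraries at once, RLE scaling, keeping genes of low count, a block for replicate number, protein-coding genes alone, floors of 2 FPKM or on the mean of all 9 libraries, and each library left out. For TE, TMM within each assay and a term pairing the assays by library number were added after the data were seen.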

Additional observations from a re-analysis of the deposited data

Results flagged for a closer look

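4 tested differences stood out because an effect differed between groups or assays; with 3 libraries in each group, single libraries were not tested for lying far from the rest. *Slc27a3* RNA was called in opposite directions in *F*-cKO and *M*-cKO, and the direct test of *M*-cKO with *F*-cKO gave a log2 fold change of 0.81 (edgeR, adjusted *P* = 0.000139). In *M*-cKO, the effect in Ribo-seq differed from that in RNA-seq by -0.51 for *Slc38a1* (adjusted *P* = 0.0141), 1.12 for *Slc9a5* (adjusted *P* = 0.0263) and 0.84 for *Slc9a8* (adjusted *P* = 0.0298), all log2 values.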

How the results depend on the processing

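Over 16 counts of called members, 194 of 242 values under the alternatives lay within 1.5 times the count reported and 48 did not. By setting, a fit of all 9 libraries called 10 members higher in RNA-seq *F*-cKO, and 0 higher and 0 lower in Ribo-seq *M*-cKO. Over all genes it called 2288 higher in the first, and 29 higher and 6 lower in the second. DESeq2 called 6 higher in Ribo-seq *M*-cKO, and 4 higher and 4 lower for TE in *M*-cKO. RLE scaling, no filter on low counts and TMM within each assay, the last added after seeing the data, each called 2 lower for TE in *M*-cKO. With the replicate block, 18 were called lower in RNA-seq *F*-cKO, and 0 higher and 4 lower in Ribo-seq *M*-cKO; of the calls named in the report, *Slc4a7*, *Slc30a7*, *Slc27a3*, *Slc22a5*, *Slc12a9* and *Slc4a4* lost theirs in RNA-seq *F*-cKO, *Slc50a1* in RNA-seq *M*-cKO, and *Slc9a5*, *Slc39a10*, *Slc32a1*, *Slc14a2*, *Slc6a11*, *Slc7a1* and *Slc29a4* in Ribo-seq *M*-cKO. With group means removed, libraries of equal number in different groups correlated across genes from -0.28 to 0.16 within an assay, and those of equal number in both assays from 0.11 to 0.27 in Ctrl, 0.10 to 0.33 in *M*-cKO and -0.28 to -0.02 in *F*-cKO. Pairing the assays by number, added after seeing the data, called 2 higher and 1 lower for TE in *M*-cKO, the same 3 members, and 0 in *F*-cKO.

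Leaving out 1 library gave 2 to 7 higher and 14 to 27 lower in RNA-seq *F*-cKO, 13 to 22 higher and 19 to 29 lower in RNA-seq *M*-cKO, 12 to 20 lower in RNA-seq *M*-cKO against *F*-cKO, 0 to 5 higher and 0 to 10 lower in Ribo-seq *M*-cKO, and 0 to 6 higher and 0 to 2 lower for TE in *M*-cKO. Over all genes these ranges were 984 to 1868 and 559 to 1606, 2048 to 2584 and 1498 to 2146, and 1325 to 2224. For Ribo-seq *M*-cKO they were 115 to 1303 and 62 to 1244, and for TE 46 to 573 and 19 to 481. Reversed values were *Slc41a2* in Ribo-seq *F*-cKO without *F*-cKO 1 (0.0365; -0.69 without *F*-cKO 2), *Slc41a1* in Ribo-seq *M*-cKO against *F*-cKO without *M*-cKO 2 (-0.58; 1.70 without *F*-cKO 2), and *Slc16a14* TE in *F*-cKO without Ribo-seq *F*-cKO 1 (0.10) or *F*-cKO 3 (0.05; -1.08 without *F*-cKO 2); none had been called, and the cause was not tested. Of members named by rule as called, 12 of 16 in RNA-seq *F*-cKO, 20 of 21 in *M*-cKO and 20 of 20 between knockouts were called in every alternative, compared with 0 of 11 in Ribo-seq *M*-cKO and 0 of 3 for TE. The median member had between 71 and 178.5 counts per Ribo-seq library, compared with 519 to 626 in RNA-seq.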
